A study of Mus musculus with 8 samples.

Results

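The 7 genes described here, all of hepatic fatty acid oxidation and its control, were followed through chromatin loops of mouse liver that had been pulled down with HA-tagged REV-ERBα. They are Ppara, Pdk4, Acadm, Acadl, Cpt1a, Cpt2 and Hadha, 7 of the 21887 protein-coding genes in the annotation used. A loop was taken as belonging to a gene when at least 1 of its anchors overlapped the gene body or the 5 kb on either side of it, a stretch called the gene's window here. That gave 133 of 57865 loops in the ZT10 knock-in library, 7 of 40597 in the ZT22 knock-in library, 10 of 47939 and 9 of 41981 in dhIDR replicates 1 and 2, and 8 of 31033 and 10 of 58102 in WT replicates 1 and 2. In-situ ChIA-PET ligates neighbouring chromatin ends inside the nucleus before immunoprecipitation, so each paired-end tag (PET) joining 2 distant anchors is 1 sequenced contact. ZT, zeitgeber time, counts hours from lights on.

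The knock-in mice carried the tag on their own REV-ERBα (genotype REV-ERBa3HA/3HA), received no virus, and gave 1 library at ZT10 and 1 at ZT22. The other 4 libraries came from mice with floxed alleles of both REV-ERB genes (REV-ERBaf/fREV-ERBbf/f), all taken at ZT10. Each of these mice had received AAV8-TBG-Cre together with a second virus, which carried either AAV8-TBG-3HA-REV-ERBa-delhIDR (dhIDR, 2 libraries) or AAV8-TBG-3HA-REV-ERBa-WT (WT, 2 libraries). TBG is a hepatocyte promoter, so in these mice the deletion and the construct are driven in hepatocytes, other liver cells keep their floxed genes, and the construct is not under the control of the REV-ERBα gene's own promoter. The animals' age and whether the replicates are separate animals are not given in the sources used here, and the 2 anti-CTCF samples of the 8 in the series were not analysed here.

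REV-ERBα, encoded by Nr1d1, is a nuclear receptor of the circadian clock that represses transcription through the NCoR corepressor and HDAC3, and its protein is abundant in mouse liver late in the light phase. In fasting, the liver moves fatty acids into mitochondria, shortens them by β-oxidation and passes the acetyl-CoA to ketogenesis. Ppara encodes PPARα, the fatty-acid-sensing nuclear receptor that activates this programme. Pdk4 encodes a kinase that inhibits the pyruvate dehydrogenase complex and so spares glucose carbon. Cpt1a and Cpt2 encode the carnitine palmitoyltransferases of the outer and inner mitochondrial membrane, which carry long-chain acyl groups across. Acadm and Acadl encode the medium-chain and long-chain acyl-CoA dehydrogenases of the first oxidation step. Hadha encodes the α subunit of the mitochondrial trifunctional protein. None of the 7 encodes an enzyme that makes ketone bodies.

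Promoters, taken as the 250 bases before the RefSeq start of each gene (build GRCm38.p6, whose coordinates are those of mm10), were covered by ZT10 anchors at all 7 genes. The following 4 are shown because they belong to the 3 genes with the most ZT10 PETs and to the rate-limiting carnitine transferase, and because they include both promoters that hold a nuclear receptor half-site. They read 5′ to 3′ on the gene's own strand, and capitals mark AGGTCA in either orientation (TGACCT where it lies on the other strand). The positions are chr15:85735526-85735775 on the plus strand for Ppara, chr6:5496279-5496528 on the minus strand for Pdk4, chr3:153944644-153944893 on the minus strand for Acadm and chr19:3323051-3323300 on the plus strand for Cpt1a. The start used for Ppara, chr15:85735776, and that for Cpt1a, chr19:3323301, lie inside the gene bodies, as do these promoters. Those bodies begin at chr15:85734910 and chr19:3322326, and distances from the start are counted from the start used.
Ppara: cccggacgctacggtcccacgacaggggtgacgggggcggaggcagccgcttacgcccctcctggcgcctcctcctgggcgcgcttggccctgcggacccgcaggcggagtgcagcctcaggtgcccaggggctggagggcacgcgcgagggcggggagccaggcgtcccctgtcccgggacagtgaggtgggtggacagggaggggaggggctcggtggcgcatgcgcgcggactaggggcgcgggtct
Pdk4: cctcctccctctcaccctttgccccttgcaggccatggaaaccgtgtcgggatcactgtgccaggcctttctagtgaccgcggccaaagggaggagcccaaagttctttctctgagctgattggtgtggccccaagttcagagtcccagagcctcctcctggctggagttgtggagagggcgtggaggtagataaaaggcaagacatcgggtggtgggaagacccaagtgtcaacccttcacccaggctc
Acadm: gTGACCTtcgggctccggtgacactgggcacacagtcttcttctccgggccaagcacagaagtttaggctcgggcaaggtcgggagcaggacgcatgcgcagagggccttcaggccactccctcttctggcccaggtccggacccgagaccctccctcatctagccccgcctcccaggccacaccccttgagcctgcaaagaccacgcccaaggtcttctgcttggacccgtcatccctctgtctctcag
Cpt1a: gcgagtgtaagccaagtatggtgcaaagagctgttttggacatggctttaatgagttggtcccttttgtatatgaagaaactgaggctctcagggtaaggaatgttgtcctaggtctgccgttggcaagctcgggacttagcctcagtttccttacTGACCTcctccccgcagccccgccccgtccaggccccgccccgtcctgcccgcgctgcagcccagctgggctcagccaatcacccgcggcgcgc

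AGGTCA, the half-site that REV-ERBs and PPARα share with other nuclear receptors, was found 249 bases before the start of Acadm and 94 bases before that of Cpt1a, on the strand opposite to the gene in both. Searched on both strands, it occurs in 2203 of the 17492 RefSeq promoters of this length (12.6%). The extended REV-ERB and ROR element, which is the half-site with AANT directly before it, occurs in 24 of them (0.137%) and in none of the 7. The direct repeat of the half-site with 1 base between its copies, the element of PPARα with its partner RXR, and the same repeat with any base at position 4 of each copy, which contains the stricter form, occur in 8 (0.0457%) and 56 promoters (0.320%), and again in none of the 7. A match describes letters in this window and not a bound site. The promoters are rich in G and C, at 56.8% for Cpt2, 58.8% for Pdk4 and Hadha, 59.6% for Cpt1a, 64% for Acadm, 68% for Acadl and 76.4% for Ppara, against a median of 55.2% over all these promoters.

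The libraries were far apart in kind, which bears on each comparison. Listed PETs on nuclear chromosomes numbered 320427 at ZT10 and 132709 at ZT22, 178426 and 160635 in dhIDR, and 104161 and 204018 in WT. Loops of up to 100 kb made up 72.8% of the ZT10 knock-in loops, but 34.3% at ZT22 and between 23.6% and 27.5% in the 4 AAV libraries. Anchors had a median width of 1067 bp in the ZT10 knock-in library and of 601 to 626 bp in the other 5. Every listed loop has at least 3 PETs, so a gene with no listed loop may still have had loops of up to 2 PETs, and listed PETs are not the sequencing depth. Markers of liver cell types were read as loops at their genes. Of 6 hepatocyte markers, 5 had loops at ZT10 (585 PETs in all, Serpina1a being at 0 in every library) and 4 at ZT22 (24 PETs), while the list summed to 27 and 10 PETs in dhIDR and to 3 and 8 in WT, where Apoa1 was at 0 in all 4. Stellate cell markers, led by Reln, summed to 23 PETs at ZT10 and 71 at ZT22, to 88 and 78 in dhIDR and to 22 and 97 in WT. Kupffer cell markers summed to 3 PETs at ZT10 and 26 at ZT22, to 41 and 18 in dhIDR and to 9 and 55 in WT. Endothelial markers summed to 116 PETs at ZT10 and 28 at ZT22, to 69 and 34 in dhIDR and to 28 and 74 in WT, cholangiocyte markers to 32 and 18, to 0 and 32 and to 13 and 9, and lymphocyte markers to 29 and 15, to 22 and 20 and to 0 and 16, in the same order. The part of span, anchor width and cell makeup in the results was not tested. In bulk tissue, fewer cells of a type and fewer contacts per cell cannot be told apart.

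Each of the 7 genes had more loops and more PETs in the ZT10 knock-in library than in any other. Ppara had 275 PETs at ZT10 and 3 at ZT22, 14 and 0 in dhIDR replicates 1 and 2, and 3 and 0 in WT replicates 1 and 2. Acadm had 256 PETs at ZT10 and 3 at ZT22, 10 and 19 in dhIDR, and 9 and 11 in WT. Pdk4 had 219 PETs at ZT10 and 3 at ZT22, 0 and 0 in dhIDR, and 0 and 3 in WT. Of these 3 genes, Acadm was the one with listed loops in every library.

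The remaining 4 genes had 44 to 98 PETs at ZT10. Cpt1a had 98 PETs at ZT10 and 5 at ZT22, 6 and 0 in dhIDR, and 7 and 4 in WT. Hadha had 78 PETs at ZT10 and 7 at ZT22, 0 and 0 in dhIDR, and 0 and 7 in WT. Cpt2, the carnitine transferase of the inner membrane, was the least often listed, with 50 PETs at ZT10, 0 at ZT22, 0 and 0 in dhIDR, and 0 and 3 in WT. Acadl had 44 PETs at ZT10 and 3 at ZT22, 3 and 15 in dhIDR, and 6 and 6 in WT, and was with Acadm listed in all 6 libraries.

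Together the genes held 1020 PETs at ZT10, or 318 per 100000 listed PETs. The same sum was 24 PETs at ZT22 (18.1 per 100000), 33 and 34 PETs in dhIDR (18.5 and 21.2) and 25 and 34 PETs in WT (24.0 and 16.7). The 4 AAV libraries were taken at ZT10 too, and their shares lay near that of the ZT22 knock-in library. Genotype and route of expression changed together with the library here, so these values stand side by side without a test.

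**Figure D1:**
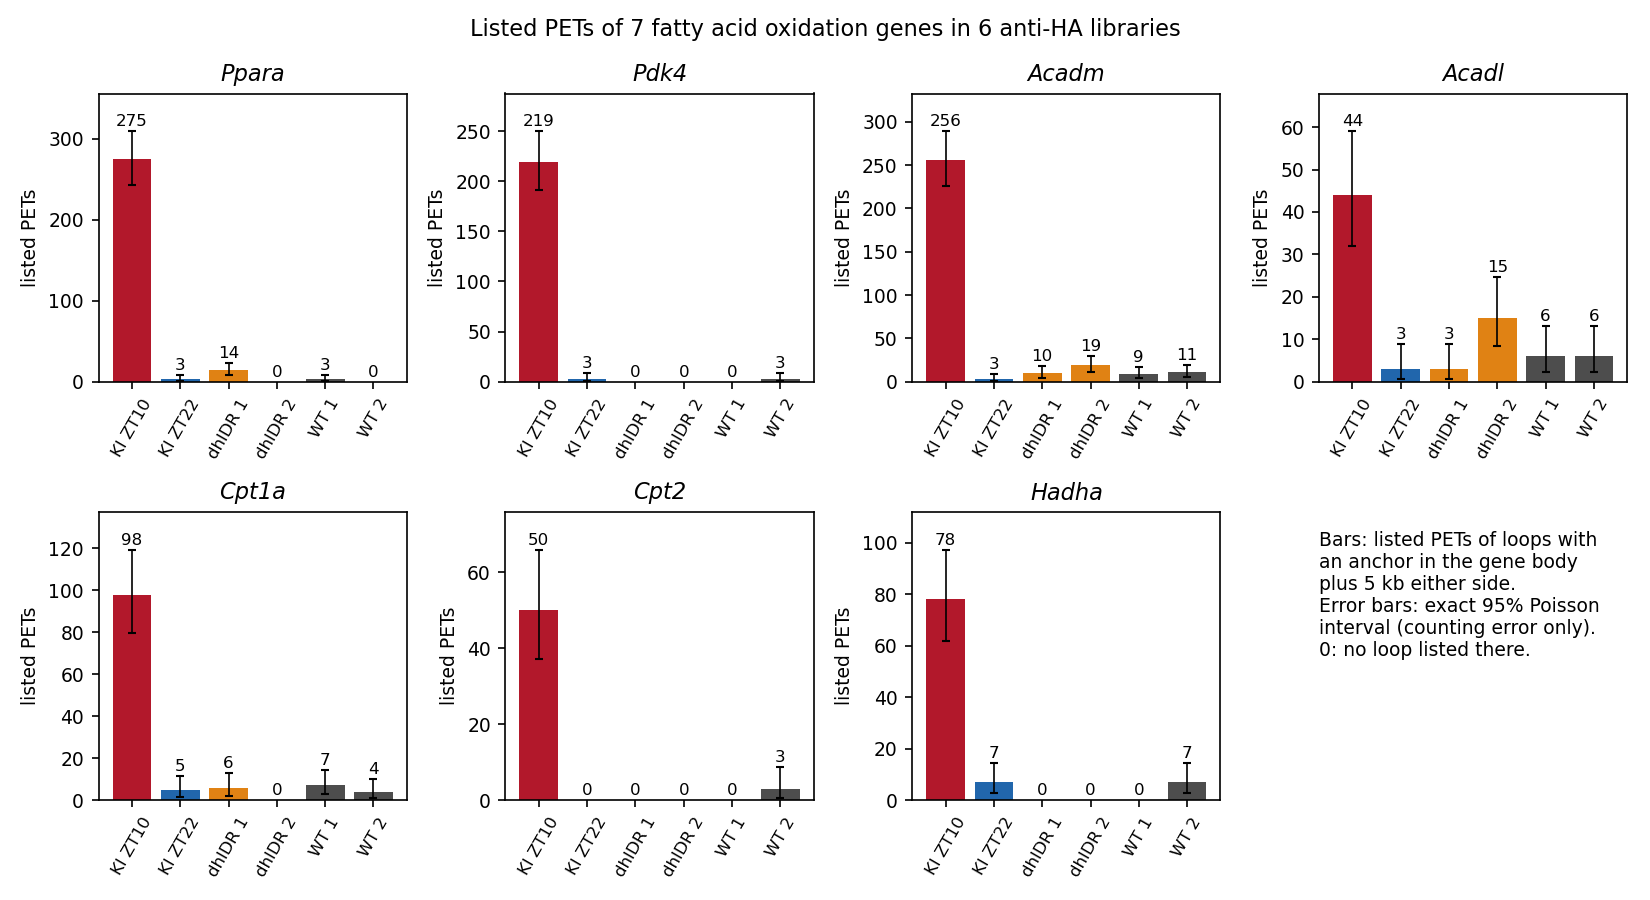
PETs of listed loops (y axis, own scale per panel) at each of the 7 genes in the 6 libraries, with exact 95% Poisson intervals for counting error; 0 means that no loop was listed. The ZT10 knock-in bar is the tallest in each panel, from 44 PETs at Acadl to 275 at Ppara, and no other bar passes 19 PETs.

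Set per length, the order of the genes changed. In the ZT10 library Pdk4 had 95.5 PETs per 10 kb of window (95% Poisson interval 83.3 to 109) and Acadm 79.3 (69.9 to 89.6), and these intervals overlap. Ppara, whose gene body is the longest at 71.9 kb, followed with 33.6 (29.7 to 37.8), clear of both its neighbours in the order. Hadha had 17.1 (13.5 to 21.4), Cpt2 16.9 (12.5 to 22.3), Cpt1a 13.3 (10.8 to 16.3) and Acadl 10.4 (7.53 to 13.9), and each of these overlaps the next. All intervals are for counting error in 1 library.

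The median over all 21887 genes was 0.234 PETs per 10 kb of window at ZT10, and the 7 genes lay between the 90.9th percentile (Acadl) and the 99.5th (Pdk4). In the other libraries the median of the 7 lay near that of all genes, below it in 3 libraries and above it in the 2 WT libraries. It was 0.706 PETs per 10 kb at ZT22, where all genes had a median of 0.711. In dhIDR it was 0.706 and 0, with all-gene medians of 1.02 and 0.707, and in WT 0.366 and 1.31, with all-gene medians of 0 and 1.11. The number of the 7 genes with a listed loop was 7 at ZT10 and 6 at ZT22, 4 and 2 in dhIDR and 4 and 6 in WT, where 52.1%, 58.5%, 61.9%, 56.7%, 49.7% and 63.5% of all genes had one, in that order.

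The change between the times of day was read from the knock-in pair as a ratio of shares, each gene's PETs over the library's listed PETs, ZT10 over ZT22. With 1 library per time there is no replicate check and no test, and the intervals are exact 95% Clopper-Pearson intervals that take PETs as independent. The log2 ratio was 5.25 (3.68 to 7.53) for Ppara, 5.14 (3.58 to 7.43) for Acadm and 4.92 (3.35 to 7.21) for Pdk4. It was 3.02 (1.75 to 4.68) for Cpt1a, 2.60 (0.96 to 4.93) for Acadl and 2.21 (1.10 to 3.57) for Hadha. Cpt2 had no listed loop at ZT22, so no fold is given, and the lower end of its interval was 2.44. Each of the 7 intervals lay above 0, and those of Ppara, Acadm, Pdk4, Cpt1a and Acadl overlap one another, which leaves the order of these 5 within counting error.

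At least 30 PETs in the knock-in pair together were listed for 3721 genes, and each of the 7 reached that minimum through its ZT10 PETs. Past a 4-fold higher share at ZT10 lay all 7, against 39.5% of the 3721. For Cpt1a, Acadl and Hadha the counting interval reached below 4-fold, with lower ends of 1.75, 0.96 and 1.10 on the log2 scale. None of the 7 lay past 4-fold lower, against 16.1%. Among the 1988 genes with at least as many ZT10 PETs as Acadl, a comparison chosen after the values were seen, 62.6% lay past 4-fold higher, so most genes this rich in ZT10 PETs passed 4-fold too.

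The median log2 ratio (0.5 PETs added to each count) was 4.70 for the 7 genes and 1.40 for the 3721. It ran between 2.12 for Hadha and 5.03 for Ppara over the 6 genes with PETs at ZT22, and Cpt2 entered the median with a value that serves to rank. Relative to that median gene, 5 of the 7 lay over 2-fold higher, against 32.2% of the 3721. The excess over the median gene was 3.63 on the log2 scale for Ppara, 3.53 for Acadm, 3.30 for Pdk4, 1.49 for Cpt1a, 1.00 for Acadl and 0.72 for Hadha. These contrasts turned with the loops counted. Shares were then of each library's PETs on the loops kept, so a ratio could change sign while the gene's own PETs changed little. On loops with both anchors at least 700 bp wide, 3 of the 7 lay past 4-fold, against 61.2% of all genes, the median log2 ratio was 1.94 for the 7 and 2.34 for all genes, and Hadha turned to a log2 ratio of -0.70 with 75 PETs at ZT10 and 7 at ZT22. On loops of at least 5 PETs, 4 of the 6 members with 30 PETs lay past 4-fold, against 74.3% of all genes, the median was 2.55 for the 7 and 2.68 for all genes, and Cpt1a turned to -0.31 with 79 PETs at ZT10 and 5 at ZT22. All genes here are those with at least 30 PETs on the loops kept, 2357 with the wide anchors and 1707 with at least 5 PETs. In both settings the median of the 7 genes thus lay below that of all genes, which does not hold for each gene. Acadm lay above the all-gene median in both settings, and Ppara and Pdk4 did so with loops of at least 5 PETs.

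**Figure D2:**
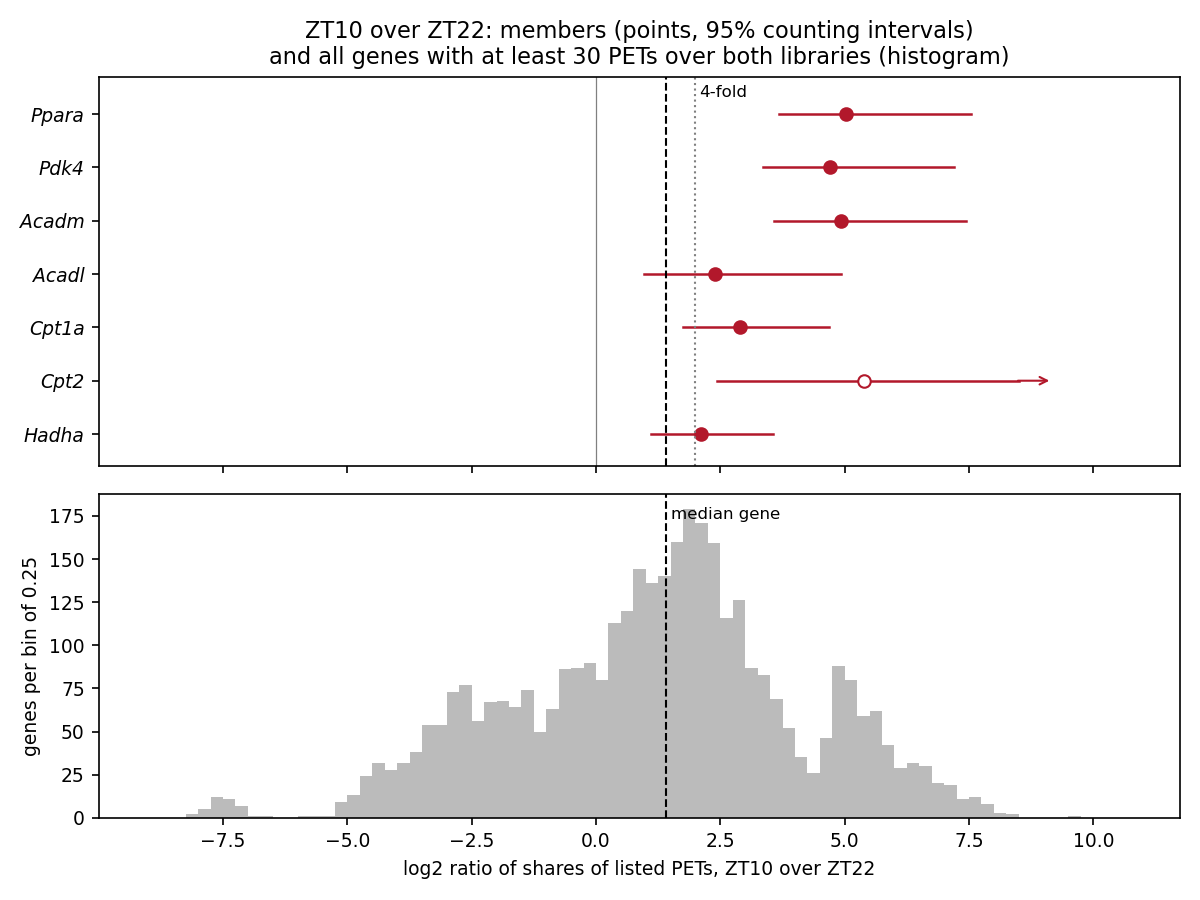
Upper panel: log2 ratio of shares of listed PETs, ZT10 over ZT22, for each of the 7 genes (points, 0.5 PETs added to each count; bars, 95% intervals for counting error; the open point of Cpt2 serves to rank and its interval has no upper end), with lines at no change, at the median gene (1.40) and at 4-fold. Lower panel: the same ratio for 3721 genes, as genes per bin; all 7 points lie to the right of the median gene.

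At ZT10 the loops formed compact clusters around the genes. Of the 133 loops, 119 (89.5%) spanned at most 100 kb and the median span was 25.3 kb, where all loops of that library had 72.8% and 40.1 kb. The 133 loops carried 7.67 PETs on average, against 5.54 over all loops of the library. The ZT22 library had 7 loops at these genes, of which 5 spanned at most 100 kb, and none carried more than 5 PETs. In dhIDR 1 of 10 and 4 of 9 loops were that short, and in WT 1 of 8 and 5 of 10. Loops over 2 Mb numbered 4 at ZT10 and 1 at ZT22, 5 and 4 in dhIDR, and 3 and 3 in WT.

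**Figure D3:**
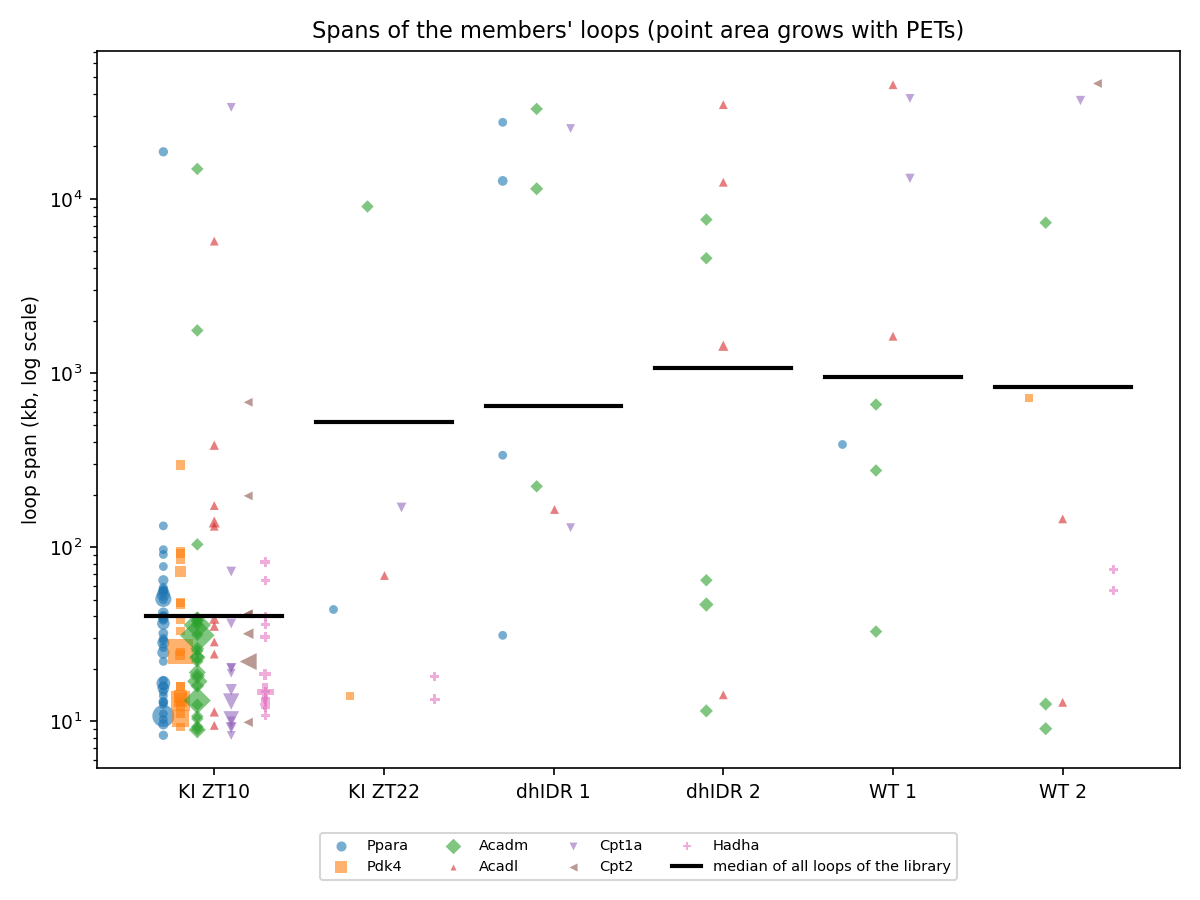
Span of every loop of the 7 genes (y axis, kb on a log scale) by library, with point area growing with PETs and a bar at the median span of all loops of that library. The ZT10 points crowd at 100 kb and below, 119 of 133, and hold the largest areas, while the few points of the other libraries spread over the whole range up to spans of over 10 Mb.

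Ppara, the transcription factor of the group, had 41 ZT10 loops with a median span of 32.0 kb. The gene lies at chr15:85734910-85806851 on the plus strand. Overlapping ZT10 anchors were merged into sites, and 3 sites carried most of its PETs. One, with positions negative upstream of the start, lay over the promoter, centred at -2.66 kb from the start (16 loops, 130 PETs), another at -15.0 kb over the RefSeq gene Gm46529 (13 loops, 138 PETs), and a further one 37.2 kb into the gene body (21 loops, 142 PETs). All 3 were joined to each other. The upstream site and the promoter shared 73 PETs, the upstream and the intragenic site 53, and the promoter and the intragenic site 28.

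The strongest single Ppara loop joined chr15:85720019-85724339 to chr15:85729991-85735806 with 50 PETs. Next came chr15:85719592-85723377 with chr15:85770055-85773721 (24 PETs), and chr15:85716598-85719946 with chr15:85733801-85735806 (16 PETs). Partner genes, taken as coding genes within 5 kb of the loop's other anchor, were few, with St3gal1 at 4 PETs and Gtse1 at 3, and the window itself reaches over Cdpf1. The ZT22 loop of Ppara ran within the gene body, from 26.2 to 70.1 kb after the start, with 3 PETs.

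Pdk4, at chr6:5483351-5496278 on the minus strand, had 22 ZT10 loops with a median span of 24.5 kb. Its PETs again joined 3 sites. The promoter site had 14 loops and 156 PETs, a site 23.4 kb after the start, beyond the 12.9 kb gene and outside any annotated gene, had 3 loops and 105 PETs, and a site 10.3 kb into the gene had 8 loops and 99 PETs. One loop between chr6:5469456-5476371 and chr6:5494482-5501471, the downstream site and the promoter, held 66 PETs, or 30.1% of the gene's total and the most of any loop of the 7 genes. The downstream and the intragenic site were joined by 36 PETs at chr6:5470573-5474917 and chr6:5484532-5487112. The intragenic site and the promoter were joined by 28 PETs at chr6:5484434-5487533 and chr6:5494509-5498176, within 42 PETs over all loops between them.

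More than 50% of the Pdk4 PETs at ZT10, 55.7%, had an anchor on the 250 bases before the start. Asb4, with 10 PETs, and Pon1, the gene of a serum paraoxonase, with 4, were its partner genes, and no anchor overlapped the body of Pon1. The ZT22 loop lay upstream, joining -2.86 and -16.8 kb from the start with 3 PETs, and overlapped no ZT10 loop at both anchors.

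Cpt1a, at chr19:3322326-3385735 on the plus strand, had 13 ZT10 loops with a median span of 15.2 kb, gathered at the front of the gene. A site 11.6 kb after the start had 8 loops and 77 of the 98 PETs. It shared 30 PETs with a site 2.28 kb after the start and 25 with the promoter site. The loops were chr19:3320136-3323771 with chr19:3332293-3337578 (25 PETs), chr19:3324259-3327347 with chr19:3334678-3337553 (22 PETs) and chr19:3318396-3319919 with chr19:3333204-3335463 (9 PETs). Of the 98 PETs, 85 stayed within the window, the highest share inside among the 7 genes. Partner genes were Mrpl21, a mitochondrial ribosomal protein gene, and Tesmin, with 5 PETs each, and the window also reaches over part of Tesmin.

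In the other libraries the loops of Cpt1a did not touch that front cluster at both anchors. At ZT22 a loop of 5 PETs ran from 52.2 kb after the start to Ppp6r3, 222 kb after it, and in dhIDR replicate 1 a loop of 3 PETs ran from 38.7 kb after the start to Ppp6r3 as well.

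Cpt2, at chr4:107903982-107923589 on the minus strand, had 7 ZT10 loops. A single one between chr4:107899102-107901323 and chr4:107920194-107924265 carried 27 of the 50 PETs (54.0%), and joined the promoter site to a site 23.2 kb after the start, just past the end of the gene. Weaker loops led from these sites to Czib: chr4:107889359-107890806 with chr4:107920887-107922919 (7 PETs), and chr4:107889546-107890269 with chr4:107899295-107900243 (4 PETs). Within 5 kb of the other anchor lay Magoh, which encodes a core protein of the exon junction complex, for 17 PETs, Czib for 11 and the lipoprotein receptor gene Lrp8 for 6. Anchors overlapped the body of Czib with all 11 of these PETs, that of Magoh with 3 and that of Lrp8 with 0. The 1 loop listed elsewhere, in WT replicate 2, spanned 46013.7 kb with 3 PETs.

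Acadm, at chr3:153922353-153944643 on the minus strand, had 26 ZT10 loops with a median span of 23.3 kb. Its strongest site lay 32.8 kb after the start, beyond the 22.3 kb gene, at Rabggtb and the small nucleolar RNA genes Snord45b and Snord45c (10 loops, 160 PETs). The promoter site had 8 loops and 125 PETs. A loop of 63 PETs between chr3:153909931-153914869 and chr3:153940680-153946384 joined these sites. A loop of 37 PETs between chr3:153910544-153914099 and chr3:153946665-153949304 ran from the Rabggtb site to a site at -3.31 kb from the start, and a loop of 36 PETs between chr3:153928646-153933146 and chr3:153941813-153946277 joined the promoter to a site 13.8 kb into the gene.

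Of the 256 Acadm PETs at ZT10, 175 led downstream, 70 stayed within the window and 11 led upstream. Rabggtb, which encodes a subunit of the enzyme that attaches lipid anchors to Rab proteins, was the partner for 166 PETs in 12 loops, and the anchor overlapped its body for 163 of them. Msh4, a meiotic recombination gene, lay within 5 kb of the anchor for 128 PETs in 6 loops that also count for Rabggtb, but no ZT10 anchor overlapped Msh4 itself. Asb17 and Dnajb4 followed with 3 PETs each. Acadm with Rabggtb was also listed in WT replicates 1 and 2, with 3 and 4 PETs. Acadm with Msh4 had 3 PETs in dhIDR replicate 2. Acadm with Slc44a5 had 6 PETs in dhIDR replicate 2 and 3 in WT replicate 1.

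Acadl, at chr1:66830839-66863309 on the minus strand, lacked a dominant loop. Its 11 ZT10 loops had at most 8 PETs each, 6 had 3, and 6 spanned at most 100 kb, with a median span of 38.8 kb. The strongest ran from the promoter, chr1:66861479-66863666, to chr1:67001207-67002806 at Lancl1 with 8 PETs, and a loop from chr1:66861999-66862952 to chr1:66900822-66901756 had 6. No PET stayed within the window, 27 led upstream and 17 downstream. Partner genes were Lancl1 with 11 PETs, Kansl1l with 10, of which 7 overlapped its body, and Rpe, the gene of an epimerase of the pentose phosphate pathway, with 3. Lancl1 recurred in dhIDR replicate 1 with 3 PETs, and Kansl1l at ZT22 and in WT replicate 2 with 3 PETs each.

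Hadha, at chr5:30119423-30154980 on the minus strand, stands head to head with Hadhb, the gene of the trifunctional protein's β subunit, and they share this region's PETs. Of the 78 PETs at ZT10, 68 led upstream, and Hadhb was the partner for 60 in 8 loops, 57 of them with an anchor on its body. The merged promoter site covers the starts of both genes (10 loops, 65 PETs) and was joined by 33 PETs (42.3%) to a site at -12.9 kb from the Hadha start within Hadhb, and by 12 PETs to a site at -15.9 kb, at Hadhb and the microRNA gene Mir1960. The window also reaches over part of Garem2, and Selenoi was a partner with 5 PETs. Hadhb itself had 84 PETs at ZT10 and 17 at ZT22, 4 and 3 in dhIDR, and 19 and 0 in WT.

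**Figure D4:**
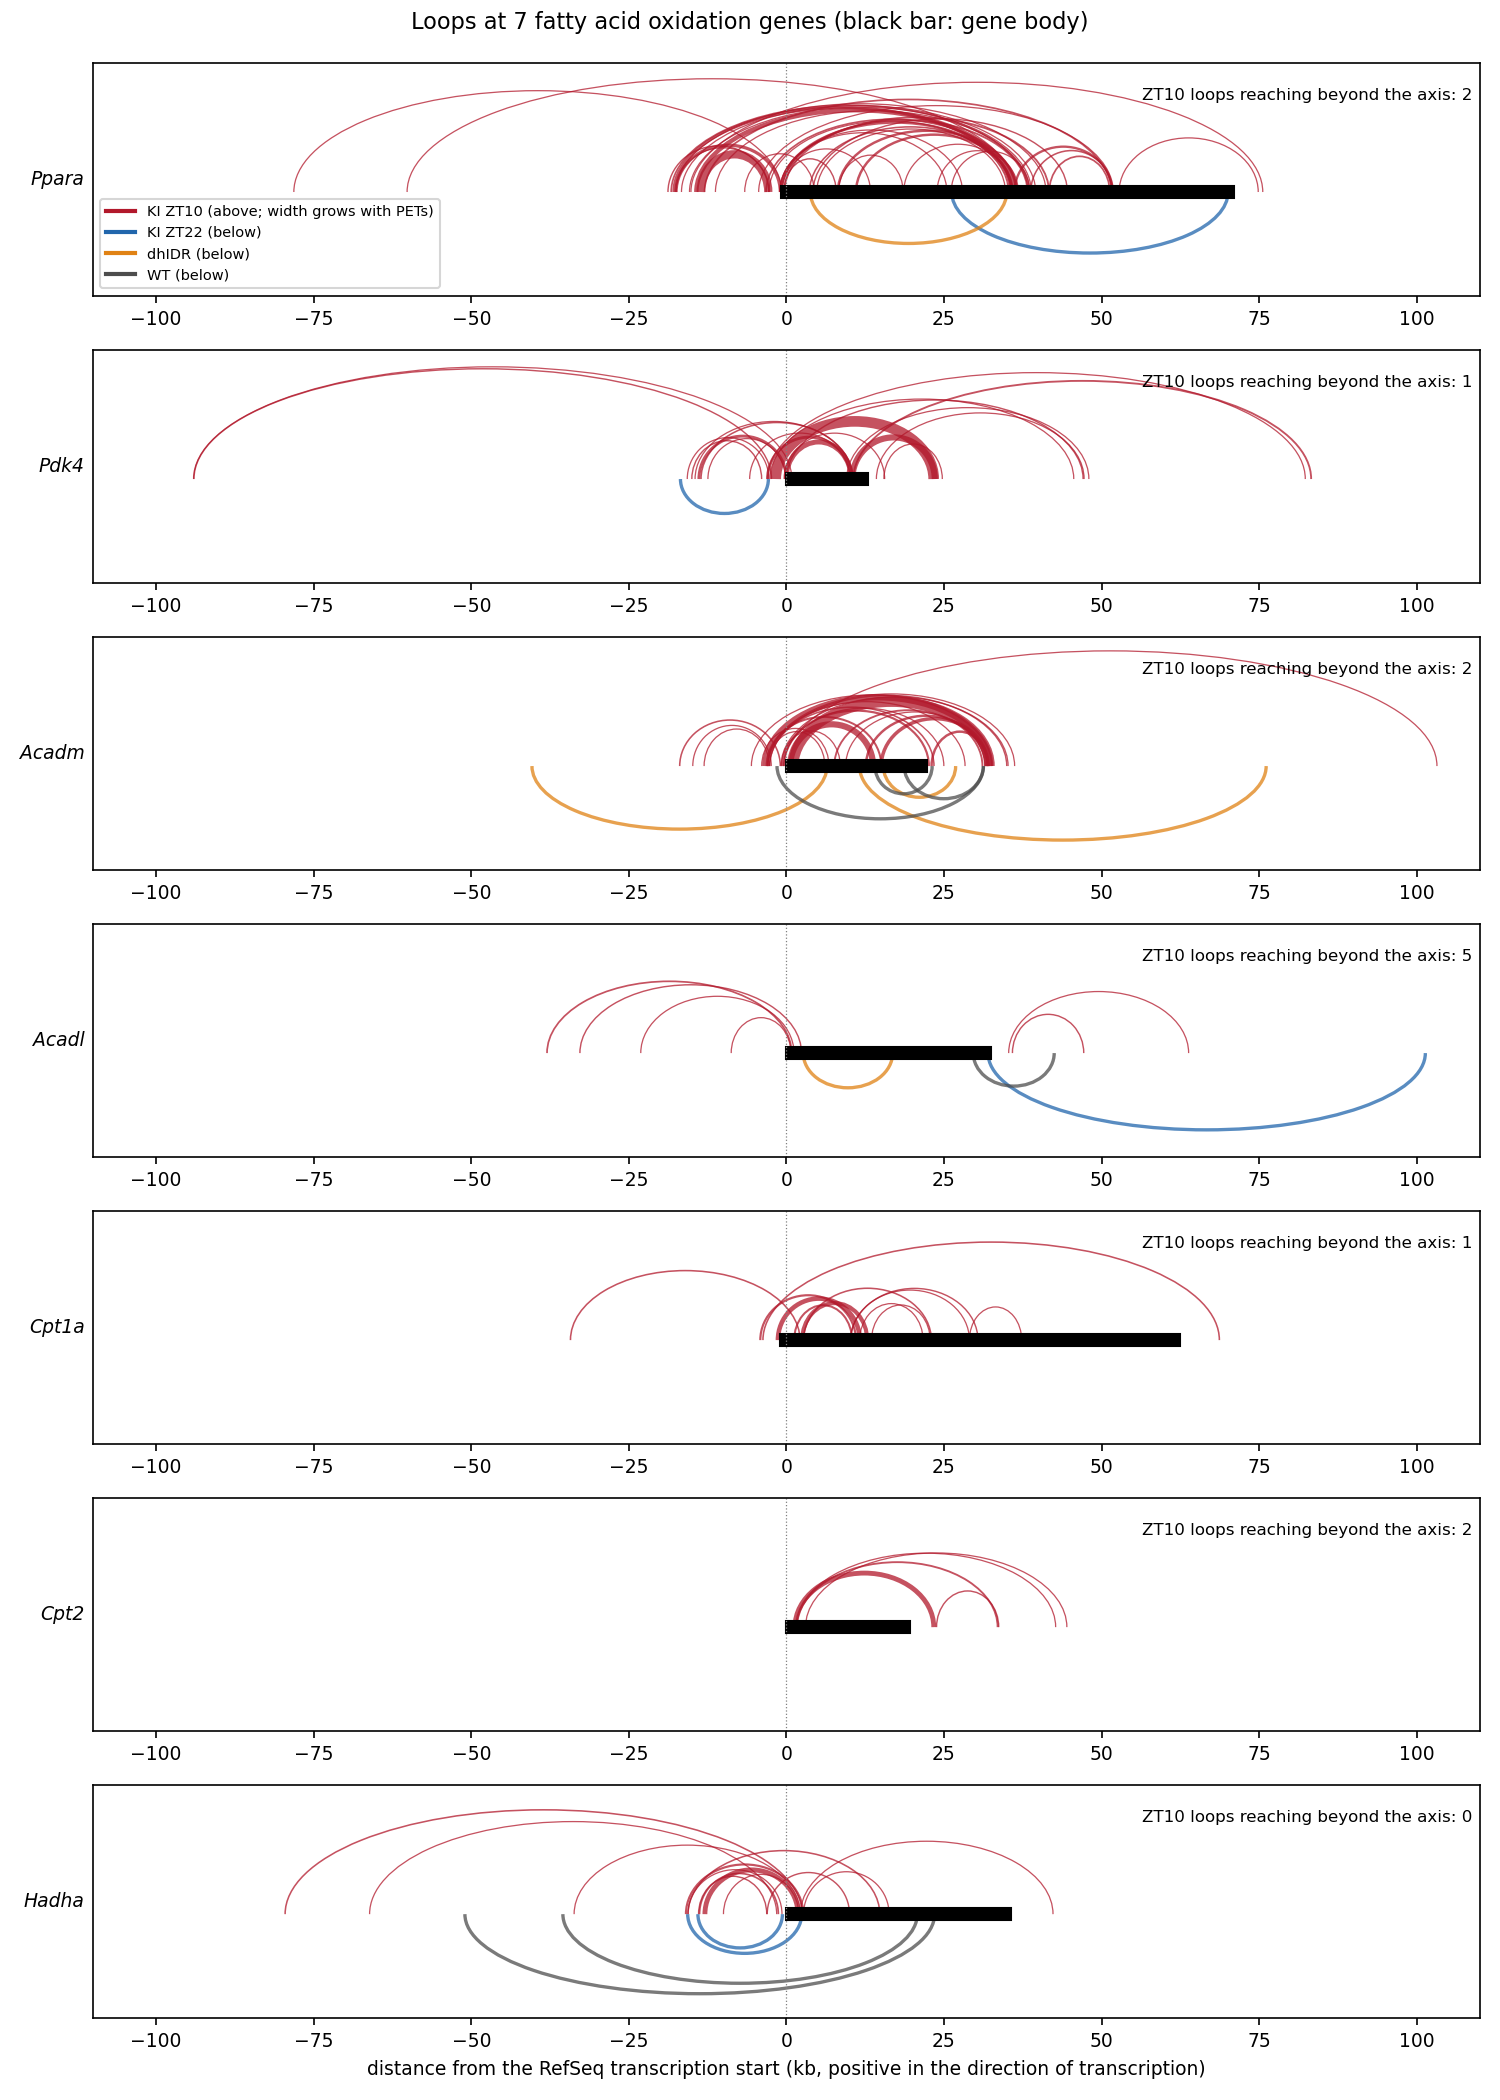
Loops within 110 kb of the start of each of the 7 genes, on an axis of distance from the RefSeq start (kb, positive in the direction of transcription), with the gene body as a black bar. ZT10 knock-in loops are drawn above, wider with more PETs, and those of the other 5 libraries below. The ZT10 arcs of Ppara and Pdk4 tie the promoter to sites on both sides. Those of Acadm lead mostly downstream, and Cpt2 has no arc below the line.

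Few loops were listed in more than 1 library, and Hadha had the clearest repeats. Both its ZT22 loops overlapped ZT10 loops at both anchors. The ZT22 loop from chr5:30154817-30156405 to chr5:30168386-30169655 (4 PETs) met the 27-PET ZT10 loop from chr5:30150815-30155470 to chr5:30166050-30169769 and a 6-PET loop from chr5:30155500-30157029 to chr5:30167941-30169583. The ZT22 loop from chr5:30151882-30153237 to chr5:30170015-30171274 (3 PETs) met a 9-PET ZT10 loop from chr5:30151501-30153105 to chr5:30169899-30171949.

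At Acadm the 63-PET ZT10 loop to Rabggtb was met by a 3-PET loop of WT replicate 1, chr3:153913103-153913669 with chr3:153945851-153946417. At Ppara a 5-PET ZT10 loop, chr15:85738945-85739944 with chr15:85770440-85772413, was met by a 3-PET loop of dhIDR replicate 1, chr15:85739255-85739908 with chr15:85770440-85771017. These 4 are the loops of the 7 genes that met a ZT10 loop at both anchors: 2 of 7 at ZT22, 1 of 10 and 0 of 9 in dhIDR, and 1 of 8 and 0 of 10 in WT. Over all loops of those libraries, 1.29% did so at ZT22, 0.720% and 0.348% in dhIDR and 0.525% and 0.365% in WT. Among loops with an anchor in any coding gene's window, it was 1.51%, 0.798% and 0.418%, and 0.640% and 0.453%. The windows of the 7 genes are rich in ZT10 loops, which these shares do not allow for, and the difference was not tested. An anchor inside a window fell on a merged ZT10 site for 5 of 7 loops at ZT22, 6 of 10 and 6 of 9 in dhIDR, and 5 of 8 and 5 of 10 in WT, where the ZT10 sites cover between 17.2% (lowest) and 64.1% (highest) of a gene's window.

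At ZT10 the share of PETs anchored on the promoter was 55.7% for Pdk4, 54.0% for Cpt2, 45.7% for Acadm, 36.0% for Ppara, 34.6% for Hadha, 25.5% for Cpt1a and 18.2% for Acadl. Over the 2084 genes with at least 30 ZT10 PETs the median was 9.82% (quartiles 0 and 34.9%), and 15.7% of those genes had over 50%. All 7 lay above that median, and Hadha, Cpt1a and Acadl lay within the quartiles, as a description with no test. A longer gene has more window away from its promoter, which this share does not correct for. In the other 5 libraries, 1 loop of Hadha at ZT22 and 1 loop of Acadl in dhIDR replicate 2 touched a promoter.

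The direction in which loops left the genes differed from gene to gene. Pdk4 sent 132 of its 219 ZT10 PETs downstream and 42 upstream, with 45 inside the window, and Acadm likewise sent most downstream. Ppara sent 151 of 275 PETs upstream and 3 downstream, with 121 inside, and Hadha sent most upstream. Cpt2 held 27 PETs inside, 20 downstream and 3 upstream.

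**Figure D5:**
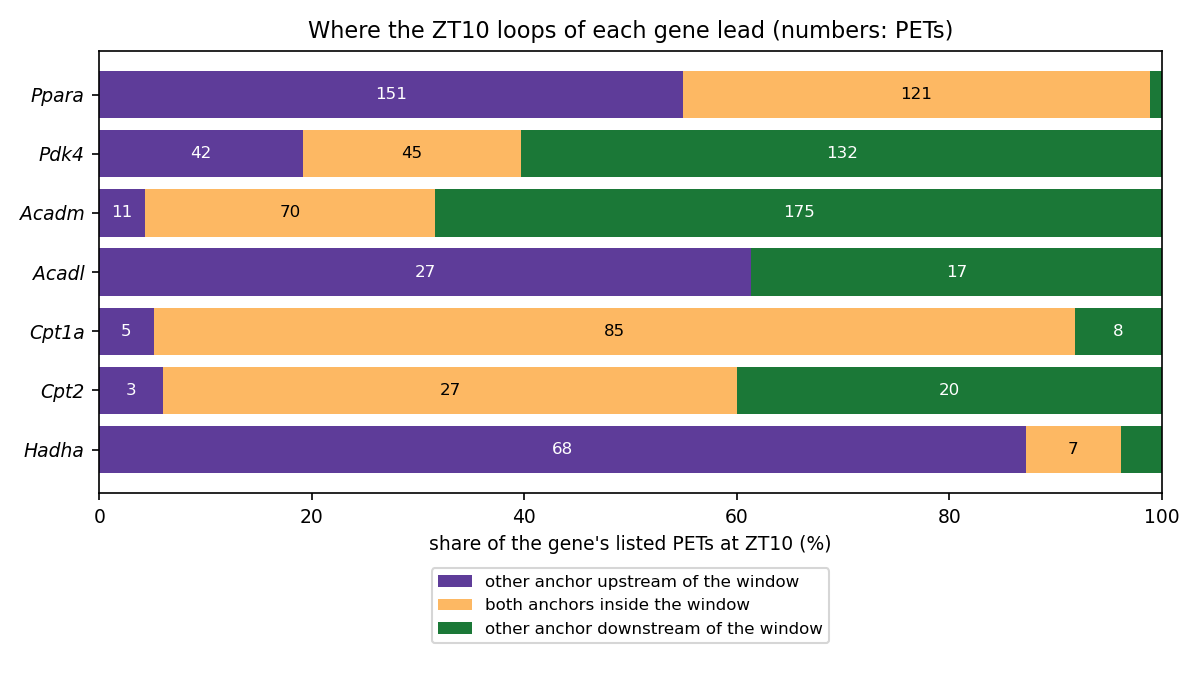
ZT10 PETs of each of the 7 genes by where the loop's other anchor lies: inside the window, upstream or downstream in the direction of transcription. Pdk4 (132 of 219) and Acadm (175 of 256) lean downstream, Ppara (151 of 275) and Hadha (68 of 78) lean upstream, and Cpt1a stays inside (85 of 98).

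The construct lacking the hIDR was compared with the full-length construct over 2 libraries each, and no change was called at any of the 7 genes. Acadm, the one gene of the 7 with enough PETs for the model (10 and 19 in dhIDR, 9 and 11 in WT), had a log2 difference of 0.33, dhIDR over WT, with a standard error of 0.79 and a 95% interval from -1.44 to 2.10, so a 4-fold difference in the upward direction is inside the interval. Its adjusted p was 1.00 by edgeR's quasi-likelihood test with Benjamini-Hochberg adjustment, and the sign turned in 4 of 11 alternative settings. The dhIDR and WT libraries overlapped, or touched at 0, for each of the 7 genes. Over 18946 genes with a PET in any of these libraries, both dhIDR libraries lay below both WT libraries for 12% and above them for 14.5%.

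Of 4754 genes tested, 1 was called (0.021%), and 128 had an unadjusted p under 0.05. The count was 0 with anchors near gene ends alone and with loops of up to 2 Mb, 3 with the replicate block, 2 without WT replicate 1, 6 without WT replicate 2 and 3 without either dhIDR replicate. The 1 called gene, Sfi1, is no member of the pathway and is named because of its value: it had 156 and 102 PETs in dhIDR and 937 and 889 in WT, a log2 difference of -3.13 (standard error 0.28, adjusted p 0.00276 by edgeR's quasi-likelihood test). The replicates' spread was wide, with a biological coefficient of variation of 0.509. The other 6 members had 0 to 15 PETs per library and did not pass the filter on low counts, and none was called when all 7 were tested without that filter or by DESeq2.

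The rest of the fatty acid pathway had loops at ZT10 as well. Of 48 other genes of the pathway, 45 had a listed loop at ZT10 and 33 at ZT22, 40 and 34 in dhIDR, and 27 and 31 in WT. Over all genes the shares with a listed loop were 52.1% and 58.5%, 61.9% and 56.7%, and 49.7% and 63.5%, in that order. The PETs of the 48 summed to 2871 at ZT10 and 271 at ZT22, to 362 and 384 in dhIDR, and to 209 and 331 in WT. With at least 30 PETs over the knock-in pair there were 29 genes, of which 21 lay past 4-fold higher at ZT10 and 0 past 4-fold lower, against 39.5% and 16.1% of all such genes. Of the 29, 28 reached the minimum by their ZT10 PETs alone, which favours a higher ratio. Pathway genes with more PETs at ZT22 than at ZT10, among them Acadsb and Hsd17b4, stayed below the minimum. Of the 21 among the 29 with at least as many ZT10 PETs as Acadl, 17 lay past 4-fold (81.0%), against 62.6% of all genes at that level. The median log2 ratio of the 29 was 3.10, against 1.40 over all genes and 4.70 for the 7.

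Peroxisomal oxidation, where very long chains are shortened, had 6 of 6 such genes past 4-fold (median log2 3.73), and fatty acid uptake and activation 4 of 4 (3.26). In mitochondrial β-oxidation 6 of 7 lay past 4-fold (3.00), the exception being Hadhb, with a log2 ratio of 1.00. Partners and targets of PPARα had 4 of 8 (2.50). Of all genes with at least 30 PETs, 39.5% lay past 4-fold, and 62.6% of those with at least as many ZT10 PETs as Acadl. Genes below the minimum are outside these counts and went both ways. In the peroxisomal list Hsd17b4 had 0 PETs at ZT10 and 7 at ZT22. In the mitochondrial list Acadsb had 0 and 16, while Slc25a20 had 13 and 3 and Eci1 had 12 and 0. None of the 5 other pyruvate dehydrogenase kinases and phosphatases reached 30 PETs, and Cpt1b, the muscle form of the outer-membrane transferase, had 115 PETs at ZT10 and 0 at ZT22. The 6 of the 48 with most ZT10 PETs were Acsl1, the long-chain acyl-CoA synthetase, with 233 PETs at ZT10 and 9 at ZT22, the PPARα coactivator gene Lpin1 with 196 and 9, the dienoyl-CoA reductase gene Decr1 with 185 and 6, the peroxisomal transporter gene Abcd3 with 181 and 6, the fatty acid binding protein gene Fabp1 with 163 and 0, and Hadh, a later step of β-oxidation, with 133 and 12.

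In ketogenesis, Acat1, which condenses acetyl-CoA, had 32 PETs at ZT10 and 3 at ZT22, and Bdh1, which reduces acetoacetate, had 27 and 3. These genes were singled out after their values were seen, and their difference from the 7 genes was not tested. Of the 48 genes 8 could be tested between constructs, none was called, and their log2 differences, dhIDR over WT, ran between -0.88 for Cd36 and 1.66 for Etfa, with a median of 0.34 against 0.03 over all genes tested.

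The 5 genes whose PETs per 100000 listed PETs over the 6 libraries came nearest to the mean profile of the 7 were Pum3, Mn1, Amotl2, Ap3m1 and Hsd17b3. Their Euclidean distances on the log2 scale, with 0.5 added, were 1.50, 1.51, 1.64, 1.65 and 1.71. The 7 genes themselves lay between 2.59 and 4.70 from that mean. Because the 5 were picked as the nearest of 21842 genes, their smaller distances say nothing particular about the 7. The profile is led by the single ZT10 knock-in library.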

How the data were processed

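Each deposited table lists, for 1 library, pairs of anchor intervals and the raw count of PETs joining them, not normalized, as the values show. The values do not show whether sequencing runs were pooled before the loops were called. Coordinates are on mm10 per the submitters' processing notes. Which aligner and loop caller made the tables is not given in the sources used here. Mitochondrial loops were left out. Gene bodies and starts came from RefSeq's GRCm38.p6 annotation, which matched all 7 genes. A loop counted once per gene when an anchor overlapped the gene's window by at least 1 bp, so neighbouring genes share PETs. Interval starts in the deposited tables were raised by 1 to read from 1.

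The knock-in libraries were compared by ratios of shares with exact 95% intervals, for genes with at least 30 PETs over both. The ranking ratios used a pseudocount of 0.5 PETs. dhIDR and WT were compared with edgeR 4.0.16 (R 4.3.3; TMM, filterByExpr, quasi-likelihood test, Benjamini-Hochberg threshold 0.05), with DESeq2 1.42.0 as an alternative. Python 3.11.15 with pandas 2.3.3, scipy 1.17.1 and matplotlib 3.10.9 did the rest. Both procedures were tested on simulated data. The labels do not say that replicates are separate animals, so p-values reflect the spread among these libraries only, and that spread may be technical. PETs may include PCR copies, and intervals cover counting error.

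The members and lists were chosen with earlier results of these data known. Named were all 7 members, the 6 other pathway genes with most ZT10 PETs, up to 3 partners and 3 loops per member at ZT10, partners and loops found in several libraries, and the 5 genes nearest in profile. One result on the other pathway genes is not reported here. Sites are merged overlapping ZT10 anchors, placed by their centre.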

Additional observations from a re-analysis of the deposited data

How the results depend on the processing

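The knock-in ratio was recomputed under 10 alternatives, of which 1 was chosen after seeing the data (loops of up to 100 kb, scaled to their own total, with 5 of the 6 members with 30 PETs past 4-fold, against 54.2% of all genes). Of 70 values for the 7 genes, 68 were positive; the exceptions were Hadha at -0.70 with anchors of at least 700 bp and Cpt1a at -0.31 with loops of at least 5 PETs. The count past 4-fold was 3 with anchors of at least 700 bp (against 61.2% of all genes then past 4-fold), 4 of 6 with loops of at least 5 PETs (74.3%) and 4 when scaled to the median gene (20.2%), against 7 in the report. In each of these settings, all genes means those that reached 30 PETs in it. The median log2 ratio of 4.70 moved to 2.96 with 25 kb either side (all genes 0.86), 1.94 with the wide anchors (2.34), 2.55 with at least 5 PETs (2.68), 3.30 with the median scale and 2.87 with a pseudocount of 3 PETs (1.08). With the wide anchors and with at least 5 PETs the median of the 7 thus fell below that of all genes, though Acadm lay above it in both. In settings that drop loops, shares were of each library's PETs on the loops kept, so a ratio also moves with those totals. Any cause beyond that was not tested. Between the constructs, the 1 called gene became 3 with no filter on low counts, 3 with 25 kb either side, 0 with gene ends alone (of 372 tested, 19 at an unadjusted p under 0.05) and 0 with loops of up to 2 Mb (of 2772 tested, 71 at an unadjusted p under 0.05), and 1 with DESeq2. Leaving out each library gave 2 to 6 calls, 2 without WT replicate 1, 6 without WT replicate 2 and 3 without either dhIDR replicate; each such fit leaves 1 library in an arm, which is assumed to vary like the other arm, and is a weak check. Replicate numbers are shared in the labels with no stated meaning, same-numbered deviations correlated at 0.00151 over 18946 genes, and with the replicate block 3 genes were called and Acadm stood at a log2 difference of 0.28. Acadm turned to -0.35 with 25 kb either side, -0.25 with gene ends alone, -0.33 with loops of up to 2 Mb and, over the leave-one-out fits, ran between -0.31 without dhIDR replicate 2 and 0.74 without dhIDR replicate 1; its adjusted p by edgeR or DESeq2 ran between 0.992 and 1.00 over 11 alternatives, and none of the members tested in any alternative was called. Loops of 0 to 2 PETs are not listed, which limits every low value.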
